A study of Mus musculus with 18 samples.

Results

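Heat shock proteins and chaperonins were described in astrocytes of the primary motor cortex (M1) across stages of motor learning. The members are the genes whose symbols follow a fixed naming rule: Hspa, Hspb, Hsph1, Hsp90, Hspd1, Hspe1, Dnaja, Dnajb and Dnajc with a number, the Cct genes and Tcp1. The rule used names and no measured value, and it found 79 of the 23924 genes read. Of these, 11 were assigned to HSP70, 3 to HSP110, 3 to HSP90, 8 to the small heat shock proteins, 2 to the mitochondrial chaperonin, 9 to the cytosolic chaperonin, and 4, 13 and 26 to J protein subfamilies A, B and C. The small heat shock proteins are the genes named Hspb, so Hspb11 is counted there by name alone. By background knowledge the 79 members were also sorted into 11 heat inducible, 7 endoplasmic reticulum (ER) stress inducible, 21 constitutive and 10 tissue restricted genes, and 30 were not classed. All 79 had at least 1 FPKM (fragments per kilobase of transcript, scaled by library) in at least 6 libraries and were tested.

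The study used wild-type C57BL/6 mice, water restricted for a lever task rewarded with water, and asked how learning changes astrocytes. The 3 groups of 6 libraries were naive (untrained, 12 to 21 weeks old), novice (3 days of training, 11 to 13 weeks) and expert (fully trained, 13 to 15 weeks), each with 2 libraries labelled female and 4 labelled male. The label gives motor cortex astrocytes as the cell type, and does not say that each library came from a separate mouse or how the cells were isolated, so p-values measure the spread between these libraries. In these mixed RNA samples, fewer cells of a type and less RNA per cell cannot be told apart.

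Chaperones bind unfolded protein chains and keep them from clumping. HSP70 proteins take up clients from J proteins, which stimulate their ATP hydrolysis, HSP110 proteins exchange the nucleotide, HSP90 proteins mature kinases and steroid receptors, and chaperonins enclose a client in a chamber. Part of the family is made at all times, part is switched on by the transcription factor HSF1 through heat shock elements when proteins unfold in the cytosol, and part belongs to the unfolded protein response of the ER. In brain, astrocytes are known to carry small heat shock proteins and inducible HSP70 under stress.

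The elements through which the inducible members are controlled were read from RefSeq promoters (GRCm38.p6, 250 bases before to 50 after a start), of which 65 of the 79 members had at least 1. The authors' files use another build, so no coordinate was carried over. The sequences below are shown because they hold examples of the elements named above for the heat and ER stress responses. The classes themselves were set from background knowledge and not from these motifs. Capitals mark a heat shock element pair (GAANNTTC or TTCNNGAA, which read the same on both strands) or, in Hspa5 and Hsp90b1, an ER stress element (CCAAT, 9 bases, CCACG, either strand). Overlapping pairs are run together. The promoters are Hspa1a (chr17:34972107-34972406, minus strand), Hspa1b (chr17:34959189-34959488, minus strand), Hspb1 (chr5:135887669-135887968, plus strand), Hspe1 (chr1:55087898-55088197, plus strand), Hsph1 (chr5:149636287-149636586, minus strand), Hspa5 (chr2:34771840-34772139, plus strand) and Hsp90b1 (chr10:86705395-86705694, minus strand).
Hspa1a: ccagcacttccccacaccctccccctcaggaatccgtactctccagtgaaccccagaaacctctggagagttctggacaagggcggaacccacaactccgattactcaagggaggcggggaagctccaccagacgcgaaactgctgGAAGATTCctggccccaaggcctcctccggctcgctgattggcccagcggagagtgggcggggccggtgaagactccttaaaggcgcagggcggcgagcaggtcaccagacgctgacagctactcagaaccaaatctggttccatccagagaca
Hspa1b: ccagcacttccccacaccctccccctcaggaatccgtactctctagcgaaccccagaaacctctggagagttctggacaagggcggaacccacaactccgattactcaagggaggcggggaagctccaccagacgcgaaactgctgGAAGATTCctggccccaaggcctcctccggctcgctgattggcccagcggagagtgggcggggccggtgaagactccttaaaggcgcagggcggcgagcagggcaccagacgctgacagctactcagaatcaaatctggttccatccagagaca
Hspb1: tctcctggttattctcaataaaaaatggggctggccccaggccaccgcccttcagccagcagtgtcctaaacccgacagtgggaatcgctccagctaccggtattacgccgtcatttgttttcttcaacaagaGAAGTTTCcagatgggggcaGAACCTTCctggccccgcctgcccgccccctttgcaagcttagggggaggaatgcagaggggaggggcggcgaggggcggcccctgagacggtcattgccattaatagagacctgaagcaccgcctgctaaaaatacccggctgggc
Hspe1: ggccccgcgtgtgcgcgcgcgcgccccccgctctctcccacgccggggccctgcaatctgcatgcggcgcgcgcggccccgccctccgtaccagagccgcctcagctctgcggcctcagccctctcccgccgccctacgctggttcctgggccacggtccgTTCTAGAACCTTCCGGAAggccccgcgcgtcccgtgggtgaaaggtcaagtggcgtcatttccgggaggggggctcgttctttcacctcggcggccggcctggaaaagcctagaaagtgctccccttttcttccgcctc
Hsph1: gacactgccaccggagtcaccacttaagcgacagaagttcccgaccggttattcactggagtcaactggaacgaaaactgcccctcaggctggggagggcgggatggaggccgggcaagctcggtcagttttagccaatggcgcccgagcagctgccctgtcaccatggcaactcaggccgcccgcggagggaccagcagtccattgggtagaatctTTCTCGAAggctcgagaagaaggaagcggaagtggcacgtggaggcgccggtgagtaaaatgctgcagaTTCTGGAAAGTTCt
Hspa5: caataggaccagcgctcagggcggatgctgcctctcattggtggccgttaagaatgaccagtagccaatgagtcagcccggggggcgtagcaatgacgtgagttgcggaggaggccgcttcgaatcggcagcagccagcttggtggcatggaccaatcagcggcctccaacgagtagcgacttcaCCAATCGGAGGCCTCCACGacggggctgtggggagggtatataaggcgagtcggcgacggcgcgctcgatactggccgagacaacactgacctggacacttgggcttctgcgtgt
Hsp90b1: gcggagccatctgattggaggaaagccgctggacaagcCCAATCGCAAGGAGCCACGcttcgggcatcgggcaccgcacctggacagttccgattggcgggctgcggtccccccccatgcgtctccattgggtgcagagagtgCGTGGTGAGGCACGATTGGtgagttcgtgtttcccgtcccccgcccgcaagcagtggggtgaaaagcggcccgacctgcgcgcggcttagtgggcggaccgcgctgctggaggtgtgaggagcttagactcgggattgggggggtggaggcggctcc

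Of the heat inducible members' promoters, 9 of 15 (from 8 of 10 genes) held a heat shock element pair, against 5 of 20 of the constitutive ones, 1 of 6 of the ER stress inducible and 1 of 9 of the tissue restricted ones, and 15.1% of all 32851 promoters. By gene, the pair stood in 4 of 16 constitutive genes and in 4587 of 27025 of all. A run of 3 alternating blocks stood in 4 of the 15 heat inducible promoters (26.7%), in 2 constitutive ones and in 0.603% of all. These promoters are not separate genes. The heat inducible ones are overlapping windows of Hsph1 that hold the same run, Hspe1 and Hspd1, and both constitutive ones are of Dnajb6. Hspe1 and Hspd1 both lie on chromosome 1 and hold the same counts, 3 pairs and 2 runs each. Whether their windows share sequence was not examined. The ER stress element stood in 3 of 6 ER stress inducible promoters (Hspa5, Hsp90b1 and Dnajc3) and in 0.119% of all promoters. The Hspa1a and Hspa1b promoters were identical at 296 of 300 bases. Their transcripts (GENCODE vM21) are also alike: 58.8% of the 50-base windows of Hspa1a occur in Hspa1b, so their separate FPKM values are uncertain, whereas 0% of those windows occur in Hspa8, and 0% of the windows of Hsp90aa1 in Hsp90ab1. A motif match is a description of letters and says nothing of binding in these cells.

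Libraries differed in ways the groups do not explain. Signal over 1558 autosomal genes of receptor, keratin associated and defensin families that are silent in most brain cells averaged 4.69 to 6.76 FPKM in 8 libraries (2 naive, 4 novice, 2 expert) and 0.303 to 3.34 FPKM in the other 10, with expert 3 the lowest. Expert 3 also stood apart from the other 17: it had the most genes at exactly 0 (5430, the next 4378), the lowest score on the first principal component (-132, the next -79.3) and no readable value of 1 fragment. Bc1, a neuronal noncoding RNA, held 6.01% to 59.6% of the summed FPKM. Between 2257 and 5430 genes were at exactly 0, and 1 fragment on 1 kb of transcript was worth 0.603 to 1.90 FPKM where it could be read, so values of a few FPKM rest on few fragments. In novice 1 and novice 3 the sex-linked Xist and Ddx3y did not match the sex on the label. All 12 astrocyte markers were present, with a mean log2(FPKM + 1) over naive, novice and expert libraries of 6.71, 6.16 and 6.89, above neurons (4.22, 4.10 and 4.01), endothelial cells (4.68, 4.67 and 5.27), oligodendrocytes (3.58, 3.15 and 3.24) and microglia (2.38, 2.55 and 2.27).

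By level, the 21 constitutive members held 53.3% of the members' summed mean FPKM, the 11 heat inducible ones 17.3% and the 7 ER stress inducible ones 12.6%. Hspa8, the constitutive cytosolic HSP70, had the highest mean over the 18 libraries, 297 FPKM, above 98.9% of genes. Hsp90ab1, the constitutive HSP90, followed at 179 FPKM, then its heat inducible paralog Hsp90aa1 at 93.7 FPKM and Hsp90b1, the HSP90 of the ER, at 88.3 FPKM. Those 4 held 39.6% of the summed FPKM of all members (32.3% to 46.4% by library). Below them stood Hspa5, the ER HSP70 known as BiP, at 51.3 FPKM, Hspe1 and Hspd1, lid and chamber of the mitochondrial chaperonin, at 50.2 and 31.8 FPKM, and Hspa9, the mitochondrial HSP70, at 41.2 FPKM. By mean level, 2 members reached 100 FPKM, 39 lay at 10 to 100, 20 at 5 to 10 and 18 under 5. The median member, at 10.3 FPKM, lay above the median gene at 4.09 FPKM, and 14 members were in the highest decile of genes.

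**Figure D1:**
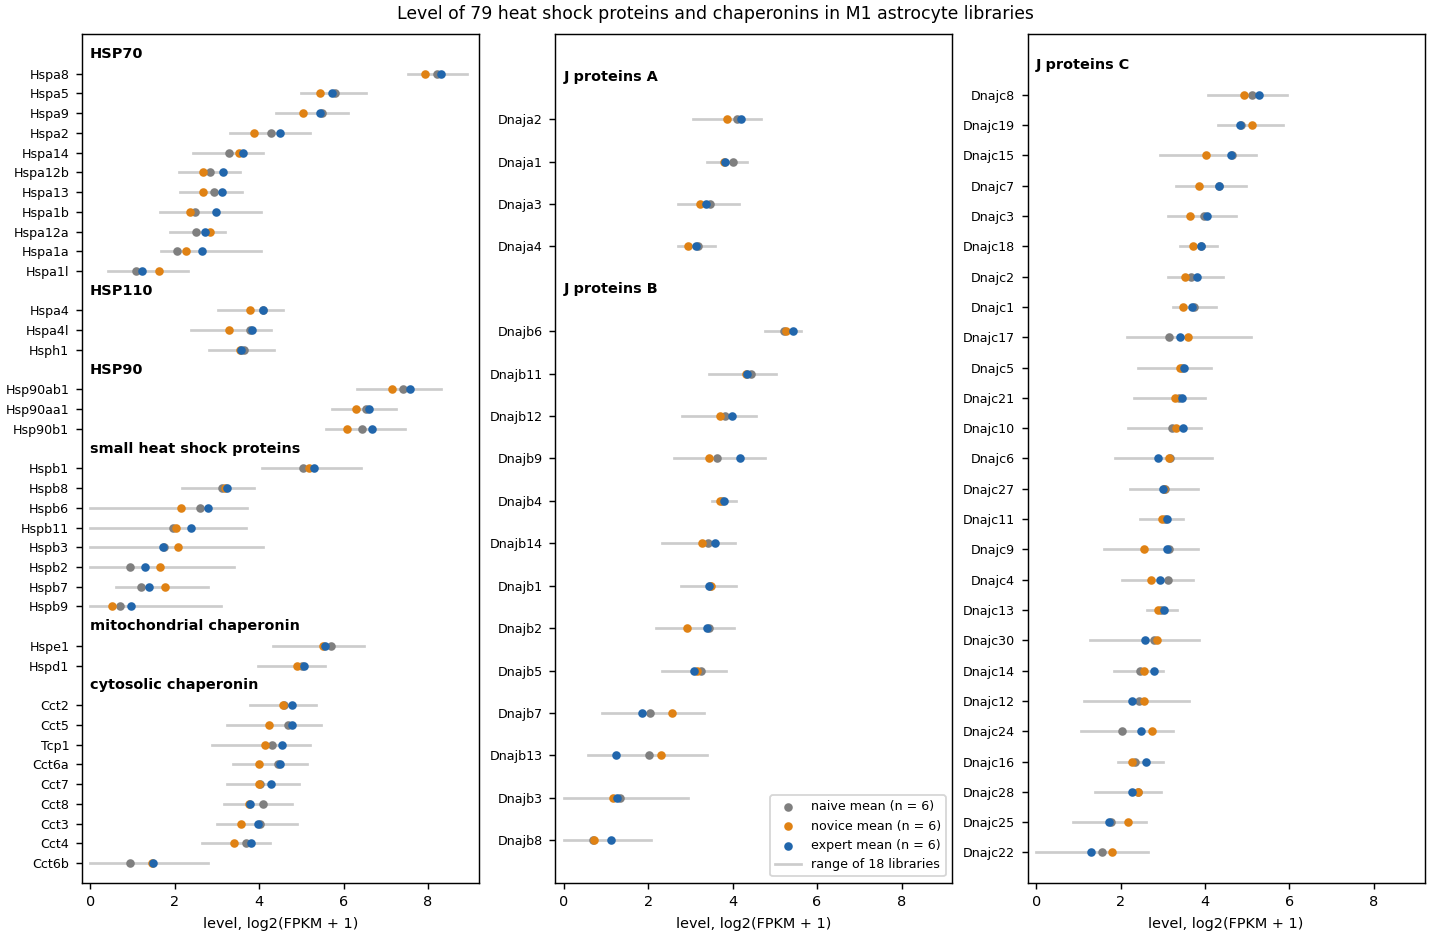
Level of each of the 79 members by family, as log2(FPKM + 1): dots are the means of 6 naive, 6 novice and 6 expert libraries, and grey lines the range of all 18 libraries. Hspa8 is highest, and the lowest rows (Dnajb8, Hspb9) lie near 1.

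The heat inducible cytosolic HSP70 genes were far lower than their constitutive relative: Hspa1b averaged 5.70 FPKM and Hspa1a 4.54 FPKM. Hspa1a was on average 1.13% of Hspa8 in naive (0.489% to 1.75%), 1.75% in novice (0.815% to 2.81%) and 1.84% in expert libraries (0.851% to 3.22%), so the groups overlapped. Hspa1b was 1.91%, 2.03% and 2.41% of Hspa8, also with overlap. Hsp90aa1 was 55.0%, 55.4% and 51.3% of Hsp90ab1 in the same 3 groups. Other heat inducible members were abundant: Hspb1, a small heat shock protein that holds unfolded clients, averaged 38.5 FPKM. Dnajb6, a constitutive J protein that suppresses aggregation, was the highest J protein at 38.8 FPKM and among the steadiest members, with a coefficient of variation of 16.2%; Dnajb4 (15.6%) and Dnajc13 (15.9%) varied least. Within the cytosolic chaperonin, a double ring of related subunits, Cct2 was highest at 25.2 FPKM and Cct4 lowest of the subunits other than the testis form Cct6b, at 11.9 FPKM. Of the tissue restricted members, Hspb9, known from testis, was listed at 0 in 12 of 18 libraries, and Dnajb8, also of testis, was the lowest member at 0.993 FPKM.

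No member passed the test at any stage. With limma on log2(FPKM + 1) and Benjamini-Hochberg adjustment over 21745 genes, 0 of 79 members were called between novice and naive (0% of all genes), 0 between expert and naive (0%), 0 between expert and novice (0%), and 0 in the F test over the 3 groups (0%). The smallest adjusted p of a member (limma) was 0.890 between novice and naive, 1.0 between expert and naive, and 0.449 between expert and novice. At an unadjusted p under 0.05, 1 member was higher in novice than in naive against 2.72% of all genes, and 1 was lower against 1.88%. For expert against naive, 0 were higher (1.43% of all genes) and 0 lower (1.43%). For expert against novice, 4 were higher (4.88% of all genes) and 1 was lower (5.97%), and the F test gave 3 (5.53%). These shares lie near the background or below it. In 0 of 79 members did the 6 libraries of one group lie wholly apart from the other, against 0.13% of all genes in the novice to naive comparison, 0.0752% in expert to naive and 0.397% in expert to novice. Comparisons against naive share the naive libraries, and those with novice share the novice ones.

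More members had lower means in novice libraries than higher ones, without passing the test. For novice against naive 54 of 79 had a lower mean (68.4%, against 43.0% of all genes), with a median log2 fold change of -0.12 where that of all genes was 0.07. For expert against naive 47 were higher and 32 lower, with a median of 0.07 against -0.05. For expert against novice 60 were higher and 19 lower, with a median of 0.18 against -0.14. Genes of higher level moved in the same directions: over genes past a filter of 5 FPKM the median of all was -0.07, 0.01 and 0.11, beside -0.14, 0.07 and 0.22 for the members past it. Without novice 1 and novice 3, the libraries at odds with their labelled sex, the members' medians were -0.11 for novice against naive and 0.22 for expert against novice. Without expert 3 the median was 0.002 between expert and naive and 0.12 between expert and novice. Astrocyte markers had the same directions with larger medians: 12 of 12 were lower in novice than in naive (-0.60), 12 of 12 higher in expert than in naive (0.19), and 12 of 12 higher in expert than in novice (0.76). Of 4 markers of oligodendrocyte precursors, 4 were lower in novice than in naive (-0.56) and 4 higher in expert than in novice (0.65). No marker was called, and the part of either cell type in the members' medians was not tested. No test was made of the list.

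The classes differed in these medians. Constitutive members had 18 of 21 lower in novice than in naive (median -0.23) and 20 of 21 higher in expert than in novice (0.33), with 0.10 for expert against naive. The ER stress inducible members had 6 of 7 lower in novice (-0.26) and 7 of 7 higher in expert than in novice (0.39). Heat inducible members mostly had the same directions, with 7 of 11 lower in novice than in naive and 10 of 11 higher in expert than in novice. Their medians were smaller, -0.12 (novice against naive), 0.05 (expert to naive) and 0.13 (expert to novice). Tissue restricted members ran the other way, with 8 of 10 higher in novice than in naive (0.42). For expert against novice they were split, with 4 higher and 6 lower and a median of -0.35. By family, the cytosolic chaperonin had 8 of 9 lower in novice than in naive (-0.30) and 9 of 9 higher in expert than in novice (0.40), and the 3 HSP90 genes 3 of 3 both ways (-0.27 and 0.44). Of all these members, 0 were called, and the medians named kept their sign under both other scalings tried. Quantile normalization put the median of all genes at 0.04 for expert against novice, against -0.14 without it, with constitutive members at 0.23, heat inducible ones at 0.01 and tissue restricted ones at -0.03. For novice against naive it put the median of all genes at -0.02, constitutive members at -0.14, HSP90 genes at -0.14, heat inducible ones at -0.02 and tissue restricted ones at 0.17. With a pseudocount of 0.1 the tissue restricted median for novice against naive was 0.74.

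**Figure D2:**
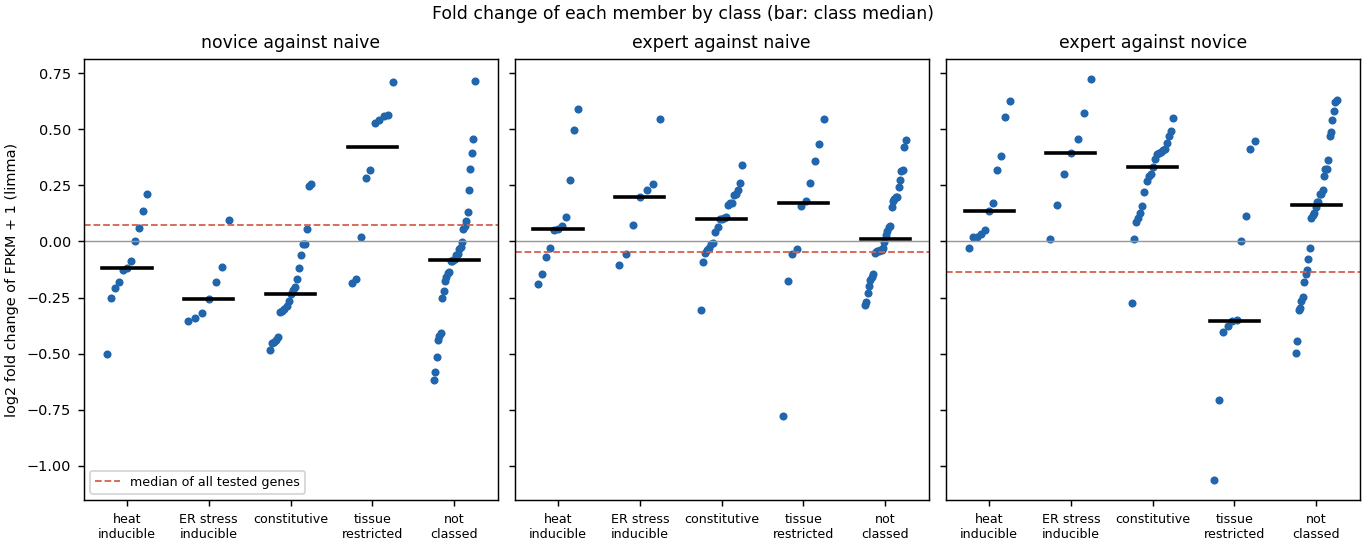
Log2 fold change of each member (dots) by class in the 3 comparisons, with the class median as a black bar and the median of all tested genes as a dashed line. Constitutive members lie mostly below 0 for novice against naive and above it for expert against novice, and tissue restricted members lie mostly above 0 in the first and on both sides of it (4 higher, 6 lower) in the second.

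The same medians moved with the silent-gene signal. Over the 21 constitutive members the mean log2 level was 4.19 (3.99 to 4.37) in the 8 libraries of higher signal and 4.86 (4.53 to 5.18) in the 10 of lower signal, so that the library classes did not overlap, and 20 of 21 had lower means. Tissue restricted members stood at 1.96 (1.63 to 2.41) against 0.96 (0.50 to 1.57), with 10 of 10 higher, and the 12 astrocyte markers at 5.97 (5.72 to 6.28) against 7.08 (6.58 to 7.93). Hspa8 ranged from 183 to 229.8 FPKM in the higher-signal libraries and from 300.2 to 484 FPKM in the lower-signal ones. Hsp90ab1 ranged from 78.1 to 143 FPKM in the higher-signal libraries and from 182 to 315 FPKM in the lower-signal ones. Taken singly, 11 of 79 members did not overlap between the library classes, 8 of them constitutive. The share of all genes that did so was not computed, so this count cannot be read as particular to the members or to the constitutive class. The first principal component of all tested genes (37.0% of the variance) also parted the classes, at 37.0 to 89.5 for higher-signal and -132 to -7.08 for lower-signal libraries. As 4 of the 8 higher-signal libraries are novice, the signal moves with the groups. With the signal as a covariate, the members' medians in the 3 comparisons, in the same order, were -0.01, -0.04 and -0.03, and those of the constitutive class -0.07, -0.10 and -0.05. Among the 8 higher-signal libraries the members' medians were 0.12, 0.06 and 0.02, and among the 10 lower-signal ones -0.10, 0.06 and 0.13. Whether the signal is the source of the lower values was not tested.

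**Figure D3:**
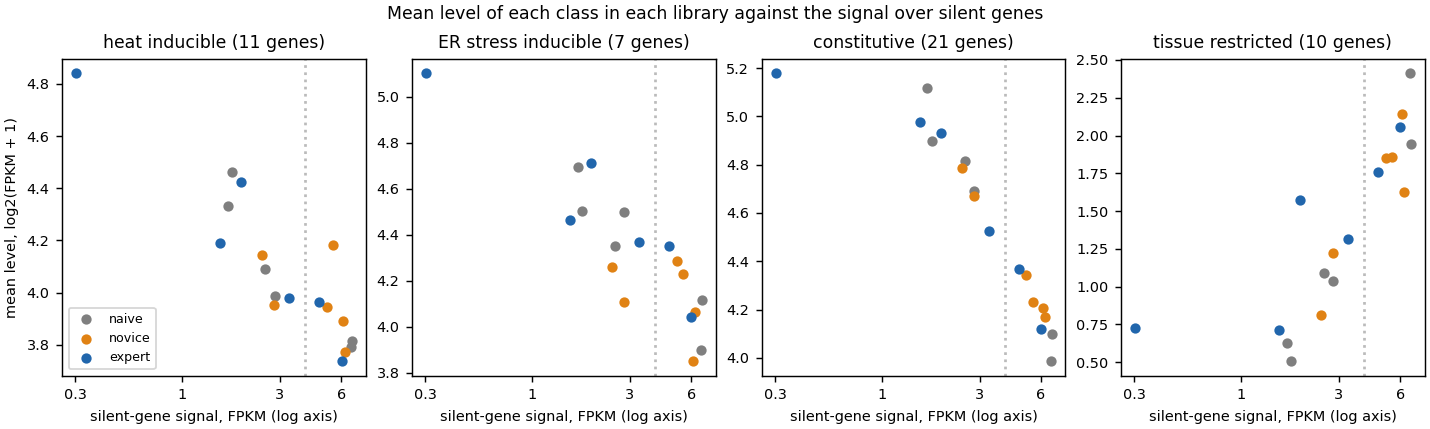
Mean log2(FPKM + 1) of 4 member classes in each of 18 libraries against the signal over silent genes (log axis), coloured by group. The 8 libraries right of the dotted line at 4 FPKM lie below the other 10 for constitutive members, at 3.99 to 4.37 against 4.53 to 5.18, and above them for tissue restricted ones.

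The members with the smallest p-values compared expert with novice. Hspa2, an HSP70 best known from testis and also present in brain, had 14.0, 20.6 and 35.7 FPKM (lowest, median and highest) in expert and 8.98, 13.6 and 18.3 FPKM in novice libraries. Expert 3, at 35.7, and expert 6, at 30.4 FPKM, were the highest, and expert and novice libraries overlapped, while naive libraries lay at 13.5 to 24.4 FPKM. Its log2 fold change was 0.62 (SE 0.24, adjusted p = 0.449 by limma). Dnajb9, an ER J protein that restrains the stress sensor IRE1, had 10.1, 17.9 and 26.1 FPKM in expert and 7.98, 9.68 and 14.9 FPKM in novice (log2 fold change 0.72, SE 0.28, adjusted p = 0.449 by limma). Of its expert libraries 4 of 6 lay above every novice one, and naive libraries ran from 5.11 to 18.5 FPKM.

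Hspa13, an HSP70 of the ER, had 5.40, 7.75 and 11.0 FPKM in expert and 3.34, 5.53 and 6.89 FPKM in novice libraries (log2 fold change 0.45, SE 0.19, adjusted p = 0.449 by limma). Hspa4l, an HSP110 nucleotide exchange factor, had 9.05, 13.6 and 18.3 FPKM in expert and 4.19, 8.19 and 13.8 FPKM in novice libraries (log2 fold change 0.56, SE 0.26, adjusted p = 0.449 by limma). In both genes expert and novice libraries overlapped. Dnajb13, a J protein of cilia and sperm tails, was the lower one, with 0.499, 0.84 and 4.32 FPKM in expert and 1.23, 3.67 and 7.32 FPKM in novice libraries (log2 fold change -1.06, SE 0.41, adjusted p = 0.449 by limma). It averaged 5.04 FPKM in the higher-signal and 1.83 FPKM in the lower-signal libraries, while 5 ependymal markers had a mean log2 level of 2.38 in expert and 2.10 in novice. With the silent-gene covariate the log2 fold changes were 0.29 for Hspa2, 0.36 for Dnajb9, 0.29 for Hspa13, 0.24 for Hspa4l and -0.64 for Dnajb13, and none of the 5 kept an unadjusted p under 0.05. Hspa2, Dnajb9 and Hspa13 were highest in expert 3, and without it their log2 fold changes were 0.48, 0.61 and 0.36.

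In novice against naive, Dnajc24, which takes part in making the modified histidine diphthamide, had 3.10, 6.25 and 8.51 FPKM in novice and 1.10, 3.69 and 6.01 FPKM in naive libraries (log2 fold change 0.71, SE 0.30, adjusted p = 0.890 by limma). Dnajc15, a J protein of the inner mitochondrial membrane, had 6.62, 16.6 and 24.1 FPKM in novice and 15.5, 28.0 and 31.0 FPKM in naive libraries (log2 fold change -0.62, SE 0.29, adjusted p = 0.890 by limma). In both the 2 groups overlapped. The unadjusted p of Dnajc15 stayed under 0.05 in 7 of 18 fits that each left out 1 library, and that of Dnajc24 in 14 of 18. Leaving out novice 6 gave the smallest change of Dnajc15, -0.40. With the silent-gene covariate the log2 fold changes were 0.86 for Dnajc24 and -0.51 for Dnajc15. Dnajc24 then had an unadjusted p of 0.0026 and Dnajc15 of 0.067 (limma), and neither was called. Under trimmed mean of M values and quantile normalization neither kept an unadjusted p under 0.05. Dnajc24 stood at 1.42 among the libraries of higher signal and 0.46 among those of lower signal, and Dnajc15 at -0.83 and -0.07.

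**Figure D4:**
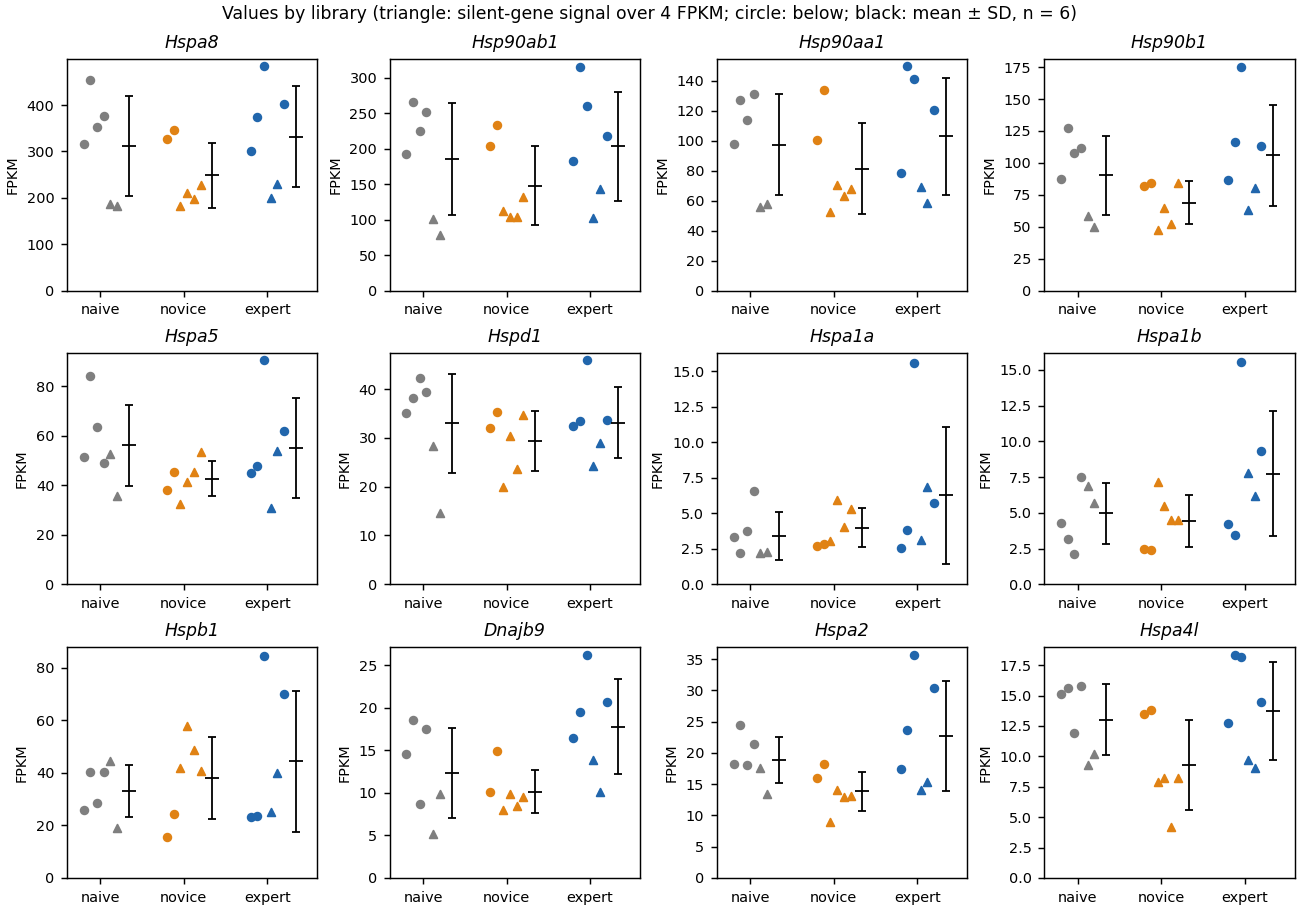
FPKM in each library for 12 members by group, with the mean and SD of 6 libraries in black. Triangles mark the 8 libraries of higher silent-gene signal. They lie at the bottom of each group for Hspa8 (183 to 229.8 FPKM) and Hsp90ab1 (78.1 to 143 FPKM). Expert 3 is the highest point for all 12 members except Hsp90ab1, Hsp90aa1 and Hspa4l.

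Among the abundant members the groups overlapped at all stages. Hspa8 had 183, 334 and 454 FPKM in naive, 183, 219 and 347 FPKM in novice and 199, 338 and 484 FPKM in expert libraries (lowest, median and highest). Its log2 fold change was -0.29 in novice against naive, 0.10 in expert against naive, and 0.39 in expert against novice (SE 0.32 each). Hsp90ab1 had 78.1, 209 and 266 FPKM in naive, 104, 122 and 233 FPKM in novice and 103, 199.8 and 315 FPKM in expert libraries. The medians of both genes were lowest in novice, but their extremes overlapped in every pair of groups. Hspa5 averaged 56.2 ± 16.5 FPKM in naive libraries, 42.7 ± 7.18 in novice ones and 55.1 ± 20.2 in expert ones (SD, n = 6 each), and Hspd1 33.0 ± 10.1, 29.3 ± 6.20 and 33.1 ± 7.24 FPKM.

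Of the heat inducible members, Hspa1a, Hspa1b, Hspb1 and Hspd1 were highest in expert 3. Many members of other classes were too, among them Hspa8, Hspa9, Hspa5, Hsp90b1 and Cct2, so this peak was not particular to the class. Dnajb1, Dnaja1, Hsph1 and Hspb8 were highest in other libraries. Hspa1a had 2.18, 2.81 and 6.58 FPKM in naive, 2.68, 3.56 and 5.92 FPKM in novice and 2.55, 4.75 and 15.6 FPKM in expert libraries. Hspa1b had 2.12, 5.0 and 7.54 FPKM in naive, 2.38, 4.51 and 7.12 FPKM in novice and 3.42, 6.97 and 15.5 FPKM in expert libraries. Both were highest in expert 3, and their log2 fold changes for expert against naive were 0.59 (SE 0.33) and 0.50 (SE 0.33). Without expert 3, which stood apart, they were 0.31 (SE 0.28) and 0.29 (SE 0.31). Hspb1 had 84.6 FPKM in expert 3 and 70.2 FPKM in expert 6, but 23.1 to 39.7 FPKM in the other 4 expert libraries. Its median was 34.4 FPKM in naive, 41.2 FPKM in novice and 32.4 FPKM in expert libraries, and its log2 fold change for expert against novice was 0.13, against -0.09 without expert 3. Dnajb1, the J protein that loads clients on HSP70, averaged 10.6 ± 3.57 FPKM in naive libraries, 10.3 ± 2.21 in novice ones and 9.98 ± 1.46 in expert ones, and Dnaja1 averaged 15.2 ± 2.26, 13.2 ± 3.07 and 13.4 ± 3.11 FPKM (SD, n = 6 each). Hsph1, the inducible HSP110, averaged 12.4 ± 5.06, 11.8 ± 5.92 and 11.3 ± 3.36 FPKM, and Hspb8, the partner of Bag3 in selective autophagy, 8.35 ± 3.34, 8.58 ± 3.34 and 8.93 ± 3.29 FPKM.

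Markers of vessel cells, and other lists, were also highest in the libraries where some of these members peaked. The 10 endothelial markers, none of them at 0 in any library, had a mean log2 level of 4.48 to 4.94 in naive libraries, 4.0 to 5.18 in novice ones and 4.55 to 5.99 in expert ones, with all 10 higher in expert than in naive (median 0.64) and in expert than in novice (0.58). Expert 3, at 5.82, and expert 6, at 5.99, were the highest. Hspa12b, an HSP70 relative of endothelial cells, had 10.7 FPKM in expert 3, 10.2 FPKM in expert 6, 9.54 FPKM in expert 5, 8.60 FPKM in expert 1, 5.14 FPKM in expert 2 and 4.94 FPKM in expert 4. It had 5.30 to 7.25 FPKM in naive and 3.3 to 7.89 FPKM in novice libraries, so the groups overlapped. The 12 rapid-response genes, which also answer to dissociation, stood at 3.19 to 4.07 in naive libraries, 3.12 to 4.24 in novice ones and 3.55 to 4.68 in expert ones. They too were highest in expert 3 (4.68) and expert 6 (4.60), and 12 of 12 were higher in expert than in naive (median 0.41). Expert 3 was also the highest of the 18 libraries for astrocyte markers (7.93) and for oligodendrocyte precursors (5.26). Whether any of these cell types or handling contributes to Hspa1a, Hspa1b or Hspb1 was not tested. Dnajc6, the auxilin of neurons that uncoats clathrin vesicles, was highest in expert 2, at 16.8 FPKM, where neuron markers averaged 4.91, the highest of the expert libraries. Novice 1 and novice 2, with 15.1 and 15.5 FPKM of Dnajc6, had the highest neuron means of all, 5.12 and 5.04. Hspa12a, the brain relative of Hspa12b, averaged 4.87 ± 1.5 FPKM in naive libraries, 6.28 ± 1.59 in novice ones and 5.70 ± 1.65 in expert ones.

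**Figure D5:**
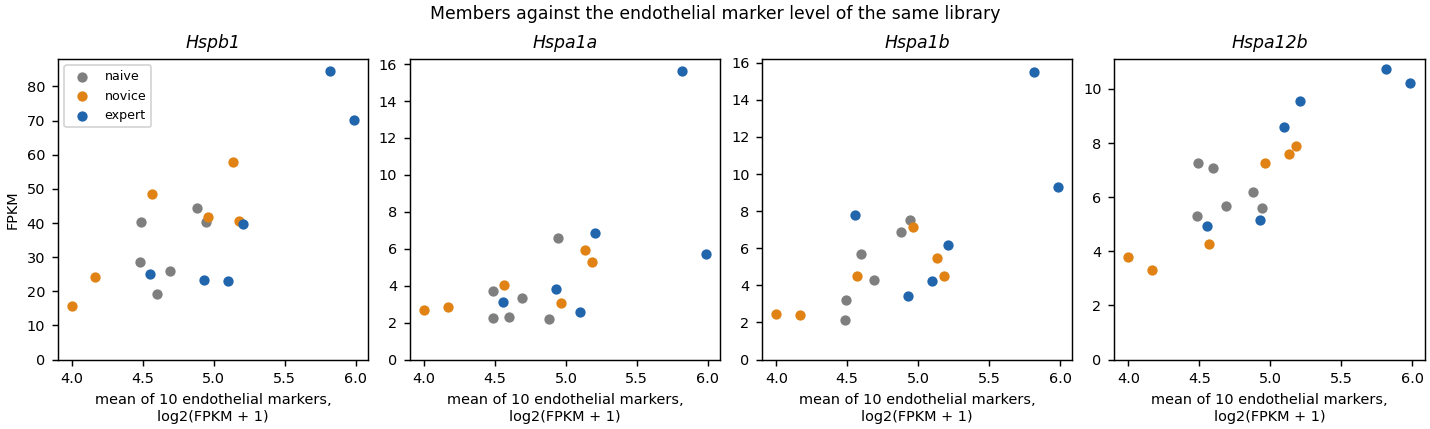
FPKM of Hspb1, Hspa1a, Hspa1b and Hspa12b in each library against the mean log2 level of 10 endothelial markers in the same library, coloured by group. Expert 3 (15.6 FPKM of Hspa1a) and expert 6 lie at the right, with endothelial means of 5.82 and 5.99.

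The regulators and co-chaperones of the family were listed apart, 45 in number, of which 44 were tested (Pfdn6 was not analysed here). None was called. For novice against naive 34 of 44 were lower (median -0.15), against 43.0% of all genes, with Stip1, the adaptor between HSP70 and HSP90, at -0.72 and the mitochondrial disaggregase Clpb at -0.51. For expert against naive 32 of 44 were higher (0.07), against 43.9% of all genes, with Bag3, an HSP70 co-chaperone and HSF1 target, at 0.47 and Bag2 at 0.65. For expert against novice 35 of 44 were higher (0.27), against 40.4% of all genes, with Bag3 at 0.69 (SE 0.21), Clpb at 0.53 and the prefoldin subunit Vbp1 at 0.54. Genes of higher level had the same directions here too. Past a filter of 5 FPKM the median of all genes was -0.07, 0.01 and 0.11 in the 3 comparisons. Bag3 had 8.32 to 15.5 FPKM in expert and 4.99 to 7.40 FPKM in novice libraries (adjusted p = 0.449 by limma). These did not overlap, as in 0.397% of all genes, but naive libraries ran from 5.76 to 11.0 FPKM. Bag3 was highest in expert 6 (15.5 FPKM) and expert 3 (15.2 FPKM). At an unadjusted p under 0.05, 3 of 44 passed between novice and naive (4.6% of all genes), 2 between expert and naive (2.86% of all), and 3 between expert and novice (10.9% of all), among them Grpel2, a mitochondrial exchange factor, at 0.40 for novice against naive. Hsf1, the heat shock transcription factor, averaged 5.38 ± 2.92 FPKM in naive libraries, 4.52 ± 0.660 in novice ones and 6.49 ± 2.82 in expert ones. The small heat shock protein Cryab had log2 fold changes of -0.37, 0.25 and 0.62 in the 3 comparisons, and Hyou1, the HSP110 of the ER, of -0.16, 0.13 and 0.30.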

How the data were processed

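RNA was recovered from astrocytes by proteinase K digestion and a silica column, and stranded total RNA libraries were made and sequenced, per the labels' protocols. Alignment and quantification used TopHat and Cufflinks with mouse build mm9, per the submitters' processing notes, with no versions, strand settings or annotation stated. The deposited table, titled as counts, holds FPKM values made by the authors. Values times transcript length were read over 126 single-transcript olfactory receptor genes, and a step was fitted in each library. In 17 libraries 63.5% to 79.3% of the values used fell near multiples of that step, against 26.5% in expert 3. Read totals are not part of it, so depth was described by the value of 1 fragment, and no counting intervals were computed. Of 23951 entries, 27 with names turned into dates were left out. Values under 0.001 FPKM are described as listed at 0.

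A gene was fitted if 6 or more of the 18 libraries had 1 FPKM or more. Fits were made on log2(FPKM + 1) with limma 3.58.1 in R 4.3.3 (mean-variance trend, all libraries, 1 mean per group, two-sided, adjusted over 21745 genes, threshold 0.05), a procedure checked on simulated data, where for expert against naive it called 24% of 50 genes changed by 1 on the log2 scale, 72% of 50 changed by 2 and 96% of 50 changed by 3, with 10 false calls among unchanged genes. Each simulated gene was drawn independently of the others, without the variation that the real libraries share. These recovery rates and false calls therefore need not hold for the real data. A fold change on this scale understates that of low genes. Trimmed mean of M values factors were computed on the FPKM values for 1 alternative, and descriptions were made in Python 3.11.15 with pandas 2.3.3. The members and lists were chosen with earlier results of these data known. Genes named are those with an unadjusted p under 0.05, the highest and lowest of each family and a list of core members and regulators; others named for a level or spread were chosen after their values were seen. The library classes of silent-gene signal were set at 4 FPKM after seeing the values, because the planned 2 FPKM did not fall in the gap. Libraries of the same replicate number were not treated as pairs in the main fit, because they did not resemble each other throughout. Whether the numbers mark shared handling cannot be told from this. Of the alternatives planned, 15 were run beside leaving out each library.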

Additional observations from a re-analysis of the deposited data

Results flagged for a closer look

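Within a group of 6 libraries, 1 library stood far from the other 5 for some of the named members, by Dixon's gap over range above 0.625. Chance flags about 5% of such groups, and 7 of 114 were flagged among the 38 named members, so the number itself is near what chance gives. Hspa1a was flagged in expert 3, at 15.6 FPKM where the next expert library had 6.83 FPKM, and in naive 4, at 6.58 FPKM with the next at 3.73 FPKM. Dnajc6 was flagged in expert 2, at 16.8 FPKM with the next at 8.01 FPKM. Dnajb9 was flagged in novice 2, at 14.9 FPKM with the next at 10.1 FPKM. Dnajb13 was flagged in naive 6, at 9.49 FPKM with the next at 4.02 FPKM. Hspb9 was flagged in novice 3, at 7.60 FPKM, where the other 5 novice libraries were listed at 0, and in naive 6, at 5.68 FPKM with the next at 1.80 FPKM; novice 3 and naive 6 both belong to the libraries of higher silent-gene signal.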

How the results depend on the processing

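Members called stayed at 0 of 79 in all 3 comparisons under every alternative run and with each library left out. The count of members at an unadjusted p under 0.05 for novice against naive, 2 in the report, was 0 with trimmed mean of M values and with quantile normalization. It was 1 with the silent-gene covariate, age as covariate, only the 2 groups compared, no mean-variance trend, silent-gene signal over 2 FPKM or of 4 FPKM or less, and 4 without the libraries whose labelled sex was at odds. The share of all genes was 4.31% and 5.33% with the 2 scalings, and 2.52% to 5.5% where 1 member (1.27%) passed. The 4 members are 5.06% beside 4.1% of all genes. For expert against naive, 0 in the report, it was 1 with quantile normalization, the covariate and signal of 4 FPKM or less, and 2 with the replicate block and signal over 4 FPKM. Where 1 member (1.27%) passed, 3.36% to 5.61% of all genes did. Where 2 members (2.53%) passed, 3.5% (replicate block) and 6.3% (signal over 4 FPKM) of all genes did. For expert against novice, 5 in the report, it was 8 with trimmed mean of M values, 3 with the covariate, and 0 with signal over 2 FPKM or over 4 FPKM. The share of all genes moved as well, from 10.9% in the report to 4.68% with the covariate (members 3.8%). It was 2.06% with signal over 2 FPKM and 4.68% with signal over 4 FPKM. With 1 library left out these counts ran from 0 (without novice 6) to 6 (without naive 5) for novice against naive, with 1 without expert 1, expert 2, expert 5, naive 3 or naive 4 and 4 without novice 2 or naive 6. They ran from 0 to 3 (without naive 4) for expert against naive, with 2 without expert 4 and 1 without expert 1, expert 5, expert 6, naive 2 or naive 6, and from 3 (without expert 3 or novice 5) to 15 (without expert 4; 11 without novice 2) for expert against novice. Set beside all genes at the same p, the 15 members are 19% of the list beside 20.1%, the 11 are 13.9% beside 16.3%, the 3 without expert 3 are 3.8% beside 4.47%, and the 6 without naive 5 are 7.59% beside 8.18%. With trimmed mean of M values the 8 members are 10.1% beside 11.7%. The cause was not tested. The members' median log2 fold change then ran from -0.18 to -0.05, from -0.02 to 0.16 and from 0.12 to 0.26. Correlations of same-numbered libraries ran from -0.361 to 0.456. They were 0.298 to 0.456 for replicate 2 and 0.203 to 0.334 for replicate 5, and of mixed sign for the others. The replicate block changed no call. The fit of libraries of 2 FPKM or less was possible for expert against naive alone, as no novice library is among them. Members under 5 FPKM rest on few fragments.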
